A study of Mus musculus with 8 samples.

Results

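The genes described here are the heat shock proteins, J proteins, chaperonins and BAG co-chaperones of mouse brain microvessels, 85 of the 48404 genes listed in the authors' deposited table. They were taken by symbol: every protein-coding gene with a fold change whose name begins as Hspa, Hspb, Hspd1, Hspe1, Hsph1 or Hsp90, as Dnaja, Dnajb or Dnajc, as Cct or as Bag, each followed by a number where the family is numbered. The samples were 4 libraries from mice with tMCAO and 4 from sham-operated mice, all wild-type C57BL6, made from total RNA of brain microvessels after removal of ribosomal RNA. In tMCAO, transient middle cerebral artery occlusion, the middle cerebral artery is closed for some time and blood flow is then let back. The ages of the mice, the length of the block, the time to collection and whether libraries came from pooled animals were not given in the sources used. Analysed were the log2 fold change and p-value that the authors deposited per gene for the whole comparison, so levels per library and their overlap between groups were not analysed here, and the depth is unknown. Which group is the numerator is not named in the header. A positive sign was taken to mean higher after tMCAO, since the acute injury genes Il6 at 5.92, Lif at 5.14 and Hmox1 at 3.81 had large positive log2 fold changes by the authors' deposited table. All errors below are implied standard errors (SE) on the log2 scale, worked out from the authors' fold change and p-value, and are approximate.

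Chaperones bind unfolded protein chains and help them to fold, to pass membranes or to be destroyed. HSP70 proteins hold and release their clients in a cycle driven by ATP: J proteins (the Dnaj genes) bring clients and start the cycle, and HSP110 and BAG proteins end it by exchanging the nucleotide. HSP90 acts later on folded clients such as kinases, small heat shock proteins keep unfolding proteins soluble, and the ring-shaped chaperonins, CCT in the cytosol and HSP60 with HSP10 in mitochondria, enclose a chain while it folds. Several of the cytosolic genes are classic targets of the heat shock factor HSF1, and several of those of the endoplasmic reticulum (ER) are targets of the unfolded protein response. Induction of Hspa1a and Hspa1b is a long-known mark of ischemic brain tissue.

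A p-value was deposited for 80 of the 85 genes, and it was read as Benjamini-Hochberg adjusted. At an adjusted p under 0.05, 30 of the 80 were higher and 11 lower after tMCAO, and 39 did not pass. Over all 19294 genes with a p-value, 15.2% were called higher and 17.6% lower, against 37.5% and 13.8% of the chaperone genes. Among the 15316 protein-coding genes 2819 (18.4%) were called higher and 3062 lower. The median log2 fold change of the 80 genes was 0.23, beside -0.0008 over all genes with a p-value. Members ranged from -0.75 for Hspb3 to 2.40 for Hspa1b by the authors' deposited table. The values are on the authors' scale. The 76 cytosolic ribosomal protein genes with a p-value had a median of 0.91, and 72 of them were called higher. Centred on them, every log2 value would lie 0.91 lower, with 2 chaperone genes called higher and 55 lower, beside 1.7% and 78.1% of all genes, so the directions given here are relative to the authors' scale. At an adjusted p under 0.01, 22 chaperone genes were higher and 8 lower, beside 9.77% and 12.1% of all genes, and the same 22 and 8 counts came from adjusting the deposited p again, beside 10.1% and 12.4%. With an absolute log2 value of 0.5 or more also required, 21 were higher and 8 lower, beside 11.5% and 13.1%. Centred on the best measured 1929 genes, 31 were higher and 10 lower, beside 16.3% and 16.6%.

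**Figure D1:**
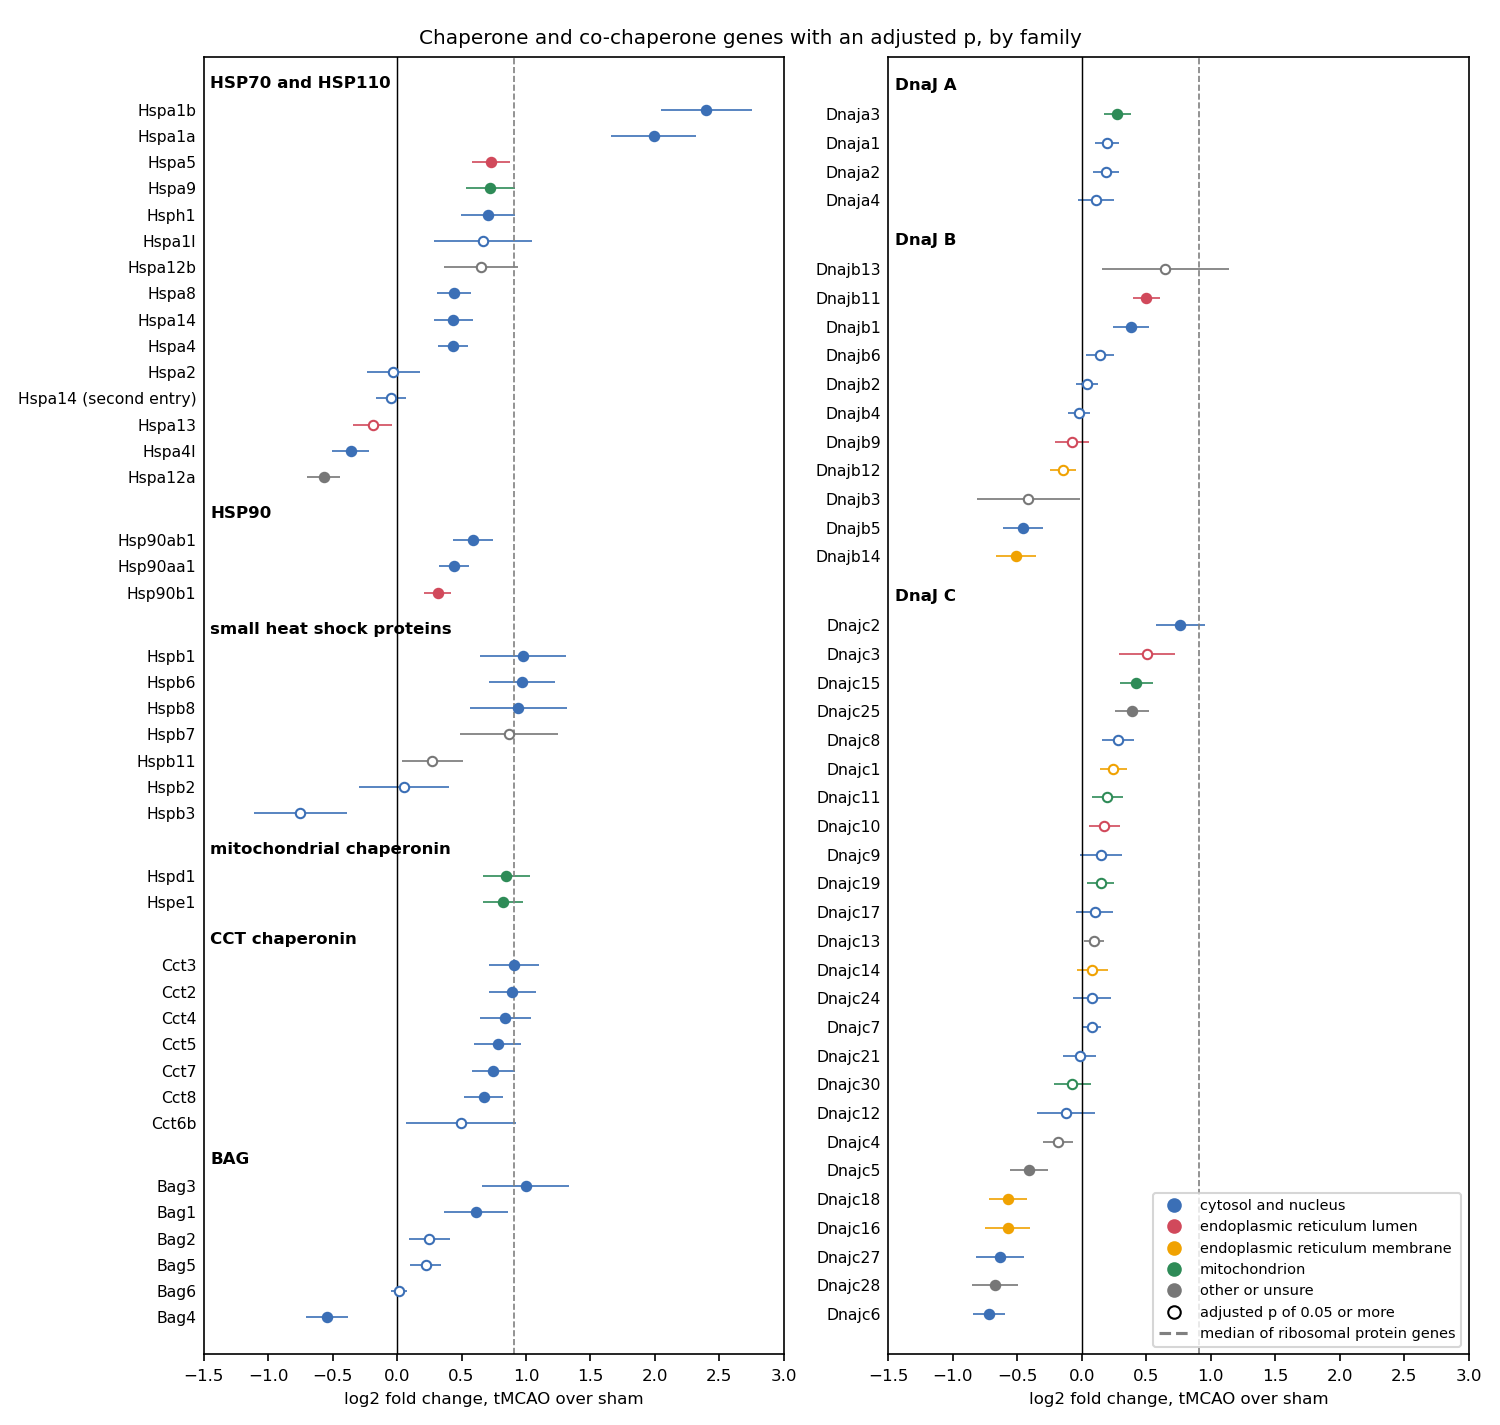
Log2 fold change, tMCAO over sham, of each of the 80 chaperone genes with an adjusted p, grouped by family and sorted within it, with bars of 1 implied SE; filled points have an adjusted p under 0.05 and colours give the compartment. Hspa1b and Hspa1a lie at 2.40 and 1.99, apart from the other members, which lie between -0.75 and 0.997; left of the dashed line at 0.91, the median of ribosomal protein genes, values would be negative on a scale centred on those genes.

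The inducible HSP70 genes had the largest values. Hspa1b was 5.28-fold higher after tMCAO by the authors' deposited table (log2 fold change 2.40, SE 0.36, adjusted p = 1.90e-09). Its neighbour Hspa1a was 3.97-fold higher by the authors' deposited table (log2 fold change 1.99, SE 0.33, adjusted p = 1.57e-07). By fold change they ranked 111 and 196 from the top of the 19294 genes. They were also the only members called higher after centring on ribosomal protein genes, at 1.49 for Hspa1b and 1.08 for Hspa1a. In GENCODE M21 on GRCm38, Hspa1b lies on chromosome 17 from 34956436 to 34959238 and Hspa1a from 34969190 to 34972156, both on the minus strand, each as 1 exon. Of the 50-base windows of their transcripts, 62.3% for Hspa1b and 66.3% for Hspa1a also occur in another annotated gene, mostly in each other, so the split of reads between these genes is uncertain. Hspa1l, the testis-type member that starts on the other strand 546 bases away from Hspa1a, had a log2 fold change of 0.67 by the authors' deposited table (SE 0.38, adjusted p = 0.168). Of its windows, 71.4% occur in another gene.

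The RefSeq promoters of this pair (GRCm38.p6, 300 bases that run from upstream to just past the start site) are shown because the pair moved most. They hold the same base at 296 of 300 places, and capitals mark a heat shock element at the same place in each, from -104 to -97 relative to the start site. Hspa1b spans chr17:34959189-34959488 and Hspa1a chr17:34972107-34972406, both on the minus strand.
Hspa1b: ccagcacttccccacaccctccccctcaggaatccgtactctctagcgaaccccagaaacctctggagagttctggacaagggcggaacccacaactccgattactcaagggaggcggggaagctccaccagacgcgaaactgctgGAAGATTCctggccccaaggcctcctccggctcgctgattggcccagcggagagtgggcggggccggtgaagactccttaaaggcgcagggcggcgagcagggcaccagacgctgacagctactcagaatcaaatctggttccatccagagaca
Hspa1a: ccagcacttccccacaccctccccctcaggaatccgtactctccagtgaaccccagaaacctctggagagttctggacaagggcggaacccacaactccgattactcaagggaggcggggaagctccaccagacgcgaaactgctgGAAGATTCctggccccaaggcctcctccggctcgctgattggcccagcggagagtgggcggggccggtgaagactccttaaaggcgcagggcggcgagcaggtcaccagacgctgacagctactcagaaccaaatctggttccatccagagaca
The element searched was GAANNTTC or TTCNNGAA, a pair of facing heat shock units and its own mirror image on the other strand, which is in 15.1% of all 32851 promoters of that length. A run of 3 units adds a further GAA or TTC in the same spacing, so that it always holds 2 overlapping pairs, and is in 0.603% of them.

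Main HSP70 genes of the ER, mitochondria and cytosol, Hspa5, Hspa9 and Hspa8, rose as well, and Hspa12a and Hspa4l fell. Of 15 entries with a p-value in this family, 8 rose and 2 fell, with a median log2 fold change of 0.44. These are 53.3% and 13.3%, beside 15.2% and 17.6% of all genes with a p-value. The share that fell is near that over all genes, so it is no result about the family. Hspa5, the BiP chaperone of the ER, had a log2 fold change of 0.73 by the authors' deposited table (SE 0.15, adjusted p = 1.76e-05). Hspa9, the HSP70 of mitochondria, was at 0.72 (SE 0.19, adjusted p = 0.00123) and Hsph1, the HSP110 exchange factor, at 0.71 (SE 0.21, adjusted p = 0.00406) by the authors' deposited table. These members of 3 separate roles thus lay within 1 SE of each other. Hspa8, the constitutive cytosolic HSP70, rose by 0.44 and Hspa4, another HSP110 relative, by 0.43 by the authors' deposited table, though 68.8% of the windows of Hspa8 recur in other genes. Hspa12a, an atypical HSP70 abundant in brain, had a log2 fold change of -0.57 by the authors' deposited table (SE 0.13, adjusted p = 1.00e-04), and Hspa4l one of -0.36 (SE 0.14, adjusted p = 0.0403). Hspa13, a further HSP70 of the ER, was at -0.19 and did not pass by the authors' deposited table (SE 0.15, adjusted p = 0.35). Hspa12b, the endothelial relative of Hspa12a, was at 0.65 and did not pass by the authors' deposited table (SE 0.29, adjusted p = 0.0676). Markers of endothelium were called higher in 10 of 15 genes, from -0.29 to 1.18 with a median of 0.74. The part of endothelial cells in the value of Hspa12b was not tested. The symbol Hspa14, a ribosome-linked HSP70, stands on 2 overlapping entries by the authors' deposited table. The entry that GENCODE M21 calls Hspa14 rose by 0.44 (adjusted p = 0.015), and the other, which it calls Gm45902, was at -0.05 (adjusted p = 0.794).

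HSP90 genes rose in all 3 of 3 members, each by less than Hspa5 and Hspa9 by value. Hsp90ab1, the constitutive cytosolic form, had a log2 fold change of 0.59 (SE 0.15, adjusted p = 0.00117) and Hsp90aa1, the inducible form, one of 0.44 (SE 0.12, adjusted p = 0.00138) by the authors' deposited table. Hsp90b1, which encodes GRP94 of the ER, was at 0.31 by the authors' deposited table (SE 0.10, adjusted p = 0.0095). Of the windows of Hsp90aa1, 50.1% recur in another annotated gene, mainly Gm12346. Trap1, the mitochondrial HSP90 that the symbol rule does not take, was at 0.27 and did not pass by the authors' deposited table (SE 0.12, adjusted p = 0.0636). Among 21 co-chaperones of HSP90 and HSP70 outside these families, 5 rose and 1 fell, with a median of 0.17. These are 23.8% and 4.76%, beside 15.2% and 17.6% of all genes with a p-value. The count that rose is near the 18.4% of protein-coding genes called higher, so it is no result about co-chaperones. Stip1, which hands clients over between HSP70 and HSP90, rose by 0.50 (SE 0.10, adjusted p = 1.17e-05) and the p23 gene Ptges3 by 0.83 (SE 0.17, adjusted p = 2.54e-05) by the authors' deposited table. The gene that fell was Ttc4, at -0.46 by the authors' deposited table (adjusted p = 0.00388).

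Small heat shock protein genes had the highest family median, 0.87 over 7 members, but wide errors. Hspb1, which encodes HSP25, was at 0.98 (SE 0.33, adjusted p = 0.0144), Hspb6, a smooth muscle member, at 0.97 (SE 0.26, adjusted p = 0.00141) and Hspb8, the BAG3 partner, at 0.94 (SE 0.37, adjusted p = 0.039) by the authors' deposited table. These 3 rose and no small heat shock gene passed in the other direction, where 1 was below 0.05 unadjusted. The 3 are 42.9% of the 7 members, while 15.2% of all genes with a p-value were higher and 17.6% lower. Of the windows of Hspb1, 50.1% recur in another annotated gene, mainly Hsp25-ps1. Hspb7, a heart and muscle member, was at 0.87 and did not pass by the authors' deposited table (SE 0.38, adjusted p = 0.0646). Hspb3 was at -0.75 with an error nearly as wide as that of Hspb7, and did not pass either by the authors' deposited table (SE 0.36, adjusted p = 0.0957). Cryab, the alpha B crystallin gene and a small heat shock protein by structure, had a log2 fold change of 0.89 by the authors' deposited table (SE 0.34, adjusted p = 0.0295). Hspb2, which overlaps Cryab head to head by 1030 bases, was at 0.05 by the authors' deposited table (SE 0.35, adjusted p = 0.926). Of the windows of Hspb2, 24.4% also occur in Cryab. Markers of mural cells, the smooth muscle cells and pericytes of the vessel wall, were called higher in 3 of 12 genes and lower in 1, from -0.42 to 0.90 with a median of 0.25. Their part in the small heat shock values was not tested.

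The mitochondrial chaperonin genes moved alike. Hspd1, which encodes HSP60, was 1.80-fold higher (log2 fold change 0.85, SE 0.18, adjusted p = 6.02e-05) and Hspe1, which encodes its lid HSP10, 1.77-fold higher (0.82, SE 0.15, adjusted p = 2.82e-06) by the authors' deposited table. Their log2 values differed by less than 1 SE of either. The genes lie head to head on chromosome 1 and overlap by 112 bases at their starts, Hspd1 from 55077835 to 55088243 on the minus strand and Hspe1 from 55088132 to 55091307 on the plus strand. Of their windows, 42.1% for Hspd1 and 44.8% for Hspe1 recur in other annotated genes. A RefSeq promoter of Hspd1 and that of Hspe1 cover 285 of the same bases, and the whole Hspe1 promoter, which includes them, is shown because it lies between 2 genes that moved alike. It spans chr1:55087898-55088197, written on the plus strand, towards Hspe1. Capitals mark 3 overlapping pairs of heat shock units from -89 to -72.
Hspe1: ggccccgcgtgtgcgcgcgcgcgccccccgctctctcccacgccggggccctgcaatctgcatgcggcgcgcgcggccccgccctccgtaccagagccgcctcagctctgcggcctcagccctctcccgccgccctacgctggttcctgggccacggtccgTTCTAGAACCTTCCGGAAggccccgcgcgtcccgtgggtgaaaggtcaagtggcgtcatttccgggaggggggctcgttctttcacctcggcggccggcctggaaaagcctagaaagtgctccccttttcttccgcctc

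The cytosolic chaperonin CCT, a ring of 8 different subunits that folds actin and tubulin, rose in nearly every subunit. Of 7 genes with a p-value, 6 rose, from 0.67 for Cct8 to 0.91 for Cct3 by the authors' deposited table. That is 85.7%, while 15.2% of all genes with a p-value were higher and 17.6% lower. Cct3 was 1.87-fold higher (SE 0.19, adjusted p = 5.70e-05), Cct2 1.86-fold (SE 0.18, adjusted p = 2.13e-05), Cct7 1.68-fold (SE 0.16, adjusted p = 1.01e-04) and Cct8 1.59-fold (SE 0.15, adjusted p = 1.13e-04) by the authors' deposited table. Cct4 was at 0.84 and Cct5 at 0.78 by the authors' deposited table. The member that did not pass, Cct6b, is the testis form of a subunit and was at 0.50 by the authors' deposited table (SE 0.43, adjusted p = 0.393). The 2 subunits that the rule leaves out, Tcp1 for its symbol and Cct6a for its annotated biotype, rose by 0.68 (adjusted p = 0.00159) and 0.86 (adjusted p = 4.67e-05) by the authors' deposited table. All 8 somatic subunits of the ring thus passed, within a range of 0.67 to 0.91 and with a median of 0.81. This lies below the ribosomal median of 0.91, so the ring's sign turns on the ribosomal scale, at -0.23 for Cct8 to -0.00092 for Cct3 among the named subunits, with no CCT gene called there. Of 10 CCT partners, Tcp1 included, 5 rose and the median was 0.34. The prefoldin subunit gene Pfdn1, whose complex delivers chains to CCT, rose by 0.62 by the authors' deposited table (SE 0.16, adjusted p = 0.00106).

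J proteins, the largest group, were called in both directions. Of 40 Dnaj genes with a p-value 6 were higher and 8 lower, with a median log2 fold change of 0.09, whereas of the 40 members outside the Dnaj group 24 were higher and 3 lower, with a median of 0.63. The Dnaj counts are near the shares over all genes, 15.2% higher and 17.6% lower, so they are no result about J proteins. The difference between these groups was not tested. DnaJ A genes, the general HSP70 partners, ranged from 0.11 for Dnaja4 to 0.27 for Dnaja3 by the authors' deposited table, with only Dnaja3, the mitochondrial member, passing (SE 0.10, adjusted p = 0.0288). Dnaja1 at 0.20 (SE 0.10, adjusted p = 0.101) and Dnaja2 at 0.19 (SE 0.10, adjusted p = 0.134) had narrow errors and did not pass by the authors' deposited table. DnaJ B genes were higher in 2 of 11 and lower in 2. Dnajb1, the heat-inducible HSP40, rose by 0.38 by the authors' deposited table (SE 0.14, adjusted p = 0.0243), far below Hspa1a and Hspa1b by value. Dnajb11, a BiP partner, rose by 0.50 by the authors' deposited table (SE 0.10, adjusted p = 4.00e-05). Dnajb14, a membrane J protein of the ER, had a log2 fold change of -0.51 (SE 0.16, adjusted p = 0.00537) and Dnajb5 one of -0.46 (SE 0.15, adjusted p = 0.013) by the authors' deposited table. Dnajb13, a sperm-flagellum member, was at 0.65 with the widest error of all members and did not pass by the authors' deposited table (SE 0.49, adjusted p = 0.327).

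DnaJ C genes, which tie HSP70 to particular tasks, were higher in 3 of 25 and lower in 6. Over all genes with a p-value 15.2% were higher and 17.6% lower. The DnaJ C counts are near these shares, so they are no result about DnaJ C genes as a group. Dnajc6, the neuronal auxilin that strips clathrin from vesicles, was 1.65-fold lower by the authors' deposited table (log2 fold change -0.72, SE 0.12, adjusted p = 3.74e-07), the smallest p-value of any member that fell. Dnajc28 was at -0.67 (SE 0.18, adjusted p = 0.00138), Dnajc27, which joins a J domain to a small GTPase, at -0.64 (SE 0.18, adjusted p = 0.00344) and Dnajc18 at -0.57 (SE 0.15, adjusted p = 0.00111) by the authors' deposited table. Dnajc5, the cysteine string protein of synaptic vesicles, had a log2 fold change of -0.41 by the authors' deposited table (SE 0.15, adjusted p = 0.0211). On the other side, Dnajc2, a J protein of the ribosome that guides HSP70 to new chains, rose by 0.76 by the authors' deposited table (SE 0.19, adjusted p = 0.000521). Dnajc15 of the inner mitochondrial membrane rose by 0.42 and Dnajc25 by 0.39 by the authors' deposited table. The other 16 did not pass and lay between -0.19 for Dnajc4 and 0.50 for Dnajc3 by the authors' deposited table. Neuron markers were lower in 15 of 15 genes in the same comparison, from -1.74 to -0.52 with a median of -1.14. In bulk samples fewer neurons and less RNA per neuron cannot be told apart, and the part of either in the fall of Dnajc6, Dnajc5 and Hspa12a was not tested.

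**Figure D2:**
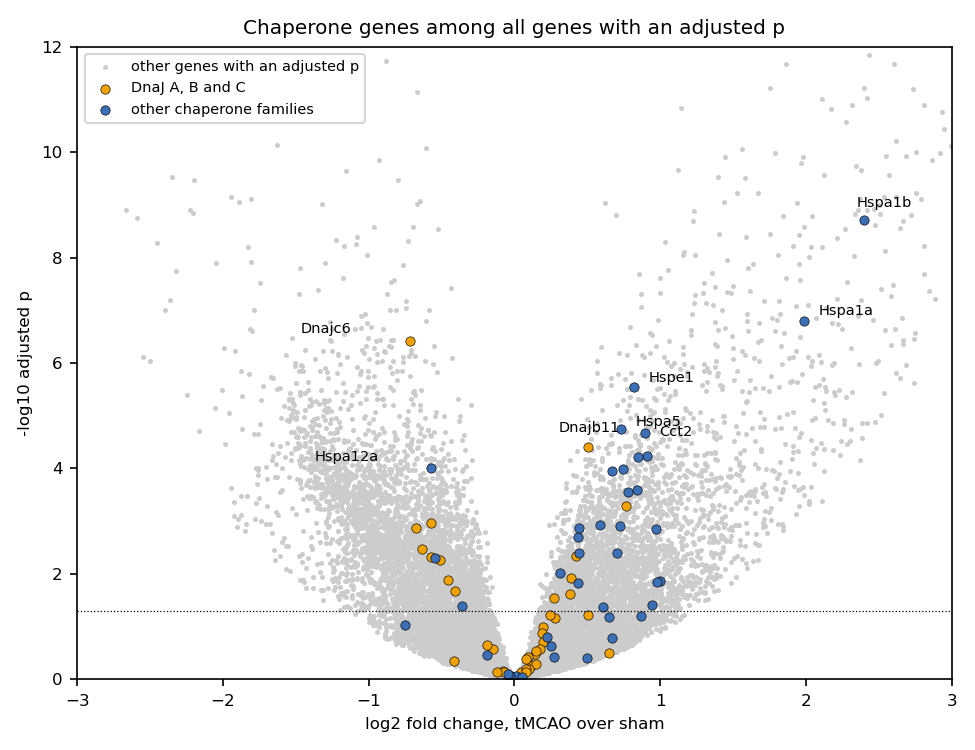
Log2 fold change, tMCAO over sham, against -log10 of the adjusted p for the genes with a p-value (grey), with J protein genes in orange and the other chaperone families in blue; the dotted line is an adjusted p of 0.05 and genes beyond the axes are not drawn. Of the other families 24 of 40 lie above the line on the right and 3 on the left, and of the Dnaj genes 6 and 8.

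Of 6 BAG genes 2 were called higher and 1 lower. These are 33.3% and 16.7%, beside 15.2% and 17.6% of all genes with a p-value, and so few genes give no result about the family. Bag3, a heat shock target that pairs with HSPB8 in selective autophagy, was at 0.997 by the authors' deposited table (SE 0.34, adjusted p = 0.0138), and Bag1 rose by 0.61 (SE 0.25, adjusted p = 0.0433). Bag4, a silencer of death receptors, had a log2 fold change of -0.54 by the authors' deposited table (SE 0.16, adjusted p = 0.00508). Bag2 at 0.25, Bag5 at 0.22 and Bag6 at 0.01 did not pass by the authors' deposited table. The error of Bag6, 0.06, was the smallest of all members.

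By compartment as assigned here, mitochondrial members were called higher most often. Compartments were assigned by hand from general knowledge, and 15 members were left as other or unsure, Dnajc28 among them. Of the 11 of those with a p-value 1 rose and 3 fell, with a median of 0.09. Of 8 mitochondrial genes 5 rose, Hspd1, Hspe1, Hspa9, Dnaja3 and Dnajc15, with a median log2 fold change of 0.35. That is 62.5%, while over all genes with a p-value 15.2% were higher and 17.6% lower. Of 12 mitochondrial chaperones and proteases outside the families 1 rose, Grpel1, the exchange factor of mitochondrial HSP70, by 0.43 by the authors' deposited table (SE 0.15, adjusted p = 0.0132), and the list's median was 0.11. Of 7 members in the ER lumen 3 rose, Hspa5, Dnajb11 and Hsp90b1, with a median of 0.31. Dnajc3, which binds BiP and restrains the stress kinase PERK, was at 0.50 and did not pass by the authors' deposited table (SE 0.22, adjusted p = 0.0607). Dnajb9, the J protein that represses IRE1 and is a strong target of the unfolded protein response in cultured cells, was at -0.08 by the authors' deposited table (SE 0.13, adjusted p = 0.692). Among 20 ER folding partners outside the families with a p-value 12 rose and 1 fell, with a median of 0.41. Sdf2l1, which works with Dnajb11 on BiP clients, rose by 1.03 (SE 0.16, adjusted p = 5.08e-09) and the disulfide isomerase gene Pdia6 by 0.56 (SE 0.10, adjusted p = 1.52e-06) by the authors' deposited table. Ero1lb, an oxidase of the ER, had a log2 fold change of -0.58 by the authors' deposited table (adjusted p = 0.0112).

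Values of J proteins anchored in the ER membrane lay on both sides of 0. Of 6, none was called higher by the authors' adjusted p, where 1 was below 0.05 unadjusted, and 3 fell, Dnajb14, Dnajc16 and Dnajc18, with a median of -0.33. Dnajc16 was at -0.57 by the authors' deposited table (SE 0.17, adjusted p = 0.00483). The other members did not pass, with Dnajc1 at 0.24 (adjusted p = 0.0611), Dnajc14 at 0.08 and Dnajb12 at -0.15 by the authors' deposited table. Centred on the best measured genes, Dnajc1 was called higher. Several of these proteins, Dnajb14 and Dnajc18 among them, face their J domain to the cytosol, unlike the lumenal chaperones. The lumen and membrane members together, 13 genes, had a median of 0.08, with 3 higher and 3 lower, 23.1% each. Of 48 members in the cytosol and nucleus 21 were higher (43.8%) and 5 lower (10.4%), with a median of 0.26. Over all genes with a p-value 15.2% were higher and 17.6% lower. The combined ER counts are near these shares, so they are no result about ER members. The difference between compartments was not tested. Heat shock factors and their regulators gave 0 calls by the authors' adjusted p among 6 genes, of which 1 was below 0.05 unadjusted, with a median of -0.09. Hsf1 was at -0.18 by the authors' deposited table (SE 0.11, adjusted p = 0.181) and Hsf4 at -0.41 (SE 0.18, adjusted p = 0.0678).

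**Figure D3:**
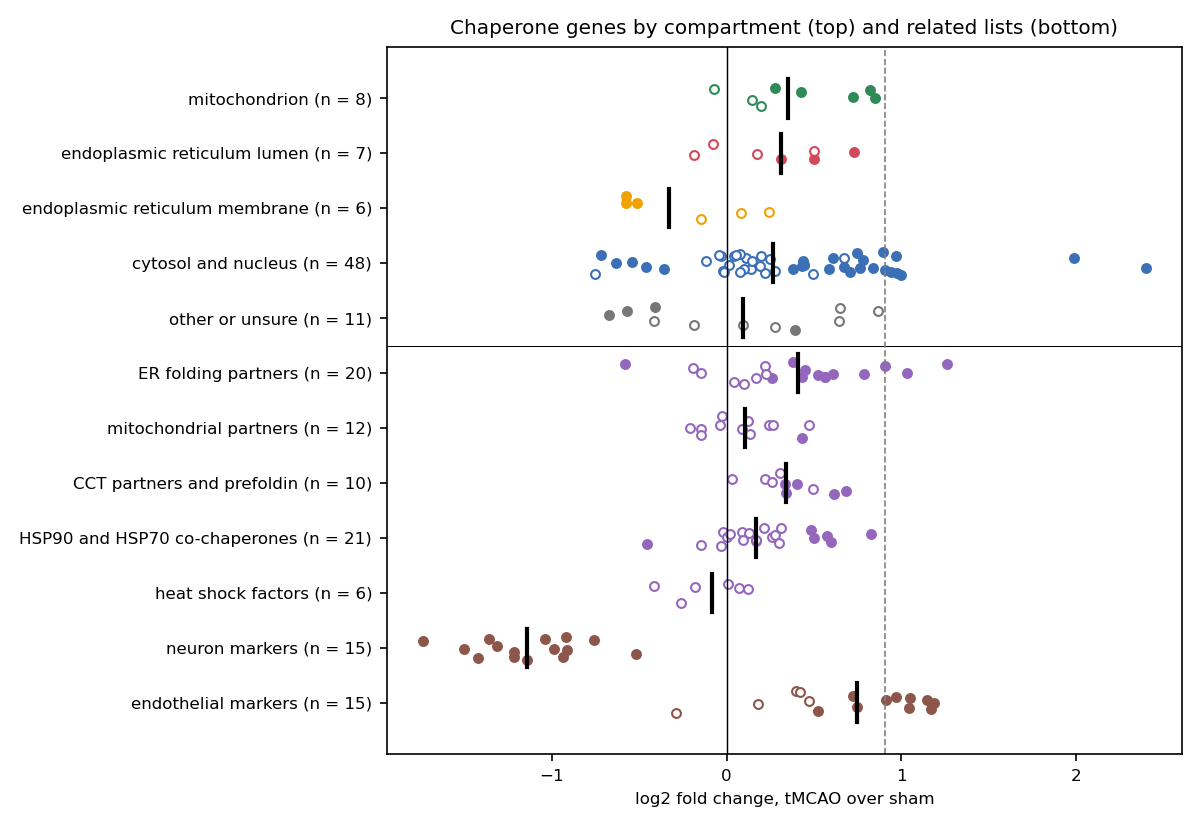
Log2 fold change, tMCAO over sham, of chaperone genes by compartment (top 5 rows) and of related lists (bottom 7 rows), 1 point per gene, filled at an adjusted p under 0.05, with thick bars at the medians; points are spread up and down only for sight. Medians are 0.35 for mitochondrial members, 0.31 in the ER lumen and -0.33 in the ER membrane, beside -1.14 for neuron markers and 0.74 for endothelial markers; the dashed line is the ribosomal median at 0.91. The row of heat shock factors includes their regulators.

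Promoter sequence was available for 68 of the 84 symbols. The ER stress response element, CCAAT and CCACG with 9 bases of any kind between them, searched on both strands, was found in 3 of these 68 (4.41%) and in 0.137% of 27025 genes. The 3 were Hspa5, Hsp90b1 and Dnajc3, all of the ER lumen, with log2 fold changes of 0.73, 0.31 and 0.50 by the authors' deposited table, of which Dnajc3 did not pass. The promoters of the 2 genes that rose are shown with the element in capitals, once in Hspa5 from -65 to -47 and in Hsp90b1 from -212 to -194 and, on the other strand, from -107 to -89. Hspa5 spans chr2:34771840-34772139 on the plus strand and Hsp90b1 chr10:86705395-86705694 on the minus strand.
Hspa5: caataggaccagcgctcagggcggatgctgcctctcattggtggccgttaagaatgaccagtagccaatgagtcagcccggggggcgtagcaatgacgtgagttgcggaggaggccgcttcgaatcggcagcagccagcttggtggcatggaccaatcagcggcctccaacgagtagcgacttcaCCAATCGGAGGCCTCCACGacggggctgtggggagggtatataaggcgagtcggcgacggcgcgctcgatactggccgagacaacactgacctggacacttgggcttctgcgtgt
Hsp90b1: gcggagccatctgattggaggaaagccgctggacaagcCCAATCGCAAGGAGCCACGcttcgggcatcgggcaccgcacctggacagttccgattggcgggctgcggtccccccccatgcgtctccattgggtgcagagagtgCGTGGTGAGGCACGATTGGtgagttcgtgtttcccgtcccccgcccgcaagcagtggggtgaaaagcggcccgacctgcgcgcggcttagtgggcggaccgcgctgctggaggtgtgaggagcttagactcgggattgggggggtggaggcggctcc
The pair of heat shock units was found in 19 of 68 symbols (27.9%), beside 17.0% of all genes. Of the 18 of these with a p-value 11 rose and 1 fell, with a median log2 fold change of 0.80. Of the 48 entries without it 13 rose and 7 fell, with a median of 0.21. Over all genes with a p-value 15.2% were higher and 17.6% lower. Among the 11 are Hspd1 and Hspe1, which share their stretch, and Hspa1a and Hspa1b, which are near-copies. All 11 are members outside the Dnaj group, where 24 of 40 were higher. The Dnaj genes Dnaja1, Dnaja4, Dnajb4, Dnajb6 and Dnajc10 hold a pair and did not pass. The same is true of the small heat shock gene Hspb3, at -0.75 by the authors' deposited table. Holding a pair and family were not separated here, and the difference between genes with and without a pair was not tested. The run of 3 units was found in Hspd1, Hspe1, Hsph1 and Dnajb6, 5.88% of the 68 beside 0.662% of all genes. A promoter of Hsph1, given as an example with separate places, lies on the minus strand at chr5:149636266-149636565. Capitals mark a pair from -54 to -47 and a run of 3 units from 15 to 27, after the start site.
Hsph1: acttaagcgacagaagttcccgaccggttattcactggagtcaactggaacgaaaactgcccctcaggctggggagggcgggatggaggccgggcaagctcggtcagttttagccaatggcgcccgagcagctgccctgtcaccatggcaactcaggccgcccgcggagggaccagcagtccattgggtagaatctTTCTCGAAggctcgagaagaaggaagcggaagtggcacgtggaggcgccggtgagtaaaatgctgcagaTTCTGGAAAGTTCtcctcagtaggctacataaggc
Dnajb6, which also holds a run of 3 units, was at 0.14 and did not pass by the authors' deposited table (SE 0.11, adjusted p = 0.329). Dnajc27, the member that fell, holds a pair at -213. A match is a description of these letters, not evidence that a factor binds.

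**Figure D4:**
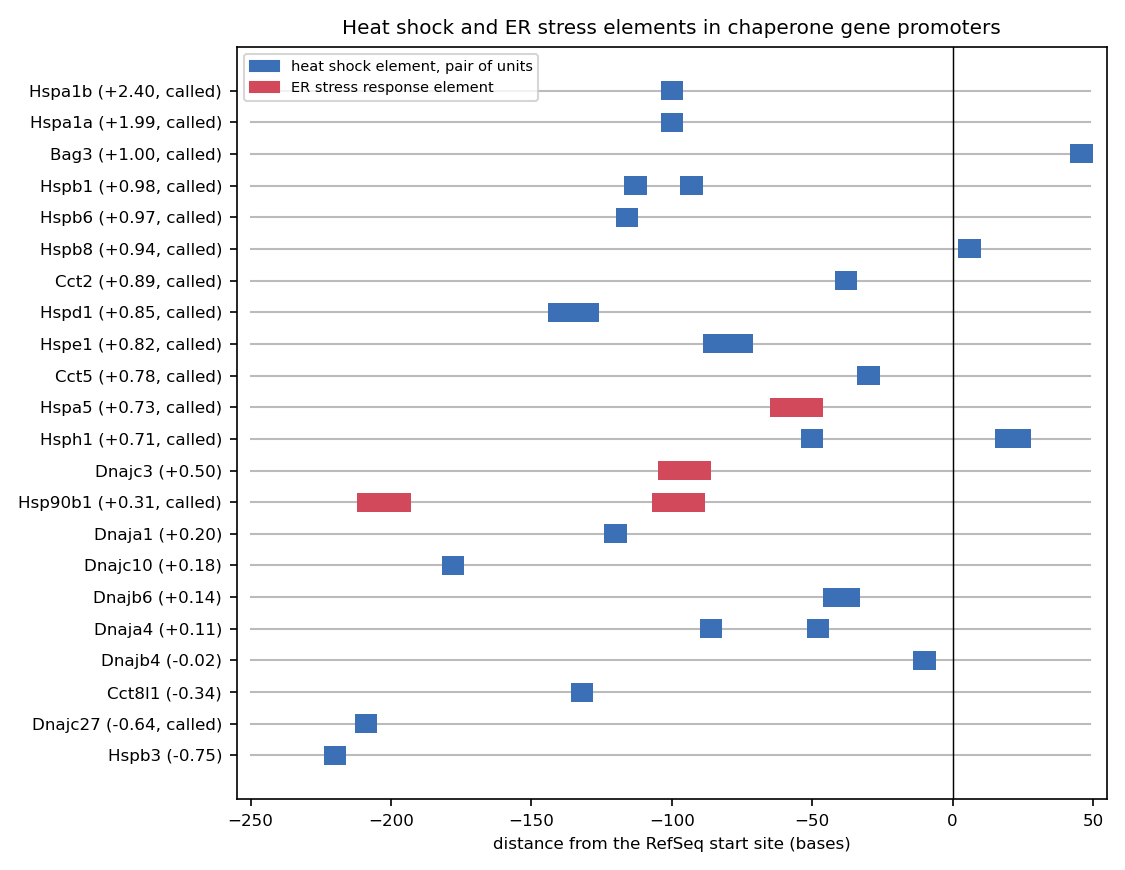
Places of heat shock pairs (blue) and ER stress response elements (red) in 1 promoter of each of the 22 chaperone genes that hold one, by distance in bases from the RefSeq start site, with the log2 fold change of the gene, tMCAO over sham, beside its name; genes run from the highest value to the lowest. Hspa1b and Hspa1a hold a pair at the same place, -104, and the ER stress elements of Hspa5, Dnajc3 and Hsp90b1 all lie before the start site.

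Of the 84 symbols, 9 have a longest coding transcript of 1 exon. Besides Hspa1a and Hspa1b these include Hspa2, a germ cell HSP70, at -0.03, Dnajc30, a mitochondrial J protein, at -0.07, Dnajb3 at -0.41 and Hspb3 at -0.75, none of which passed by the authors' deposited table. The 5 other members had a fold change and no p-value: Dnajc5b at 1.30, Dnajc22 at 0.70, Dnajb7 at 0.32, Hspb9 at -0.02 and Cct8l1 at -0.34 by the authors' deposited table. A further 2 entries that match by symbol, Dnajb8 and Dnajc5g, have no fold change. Of 12 processed pseudogenes with chaperone symbols 7 had a fold change and 0 a p-value. In all, 15 of the 85 members share over 20% of their 50-base windows with another annotated gene, and leaving them out left 23 genes called higher and 11 lower.

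Other cell markers moved in the same comparison, where 15.2% of all genes with a p-value were higher and 17.6% lower. Neutrophil markers were higher in 7 of 8 genes with a p-value (0.89 to 3.87, median 2.73) and monocyte and macrophage markers in 7 of 10 (0.49 to 2.54, median 1.54). Microglia markers were lower in 6 of 8 (-2.46 to -0.14) and oligodendrocyte markers in 6 of 8 (-1.38 to -0.05, median -0.63). Astrocyte markers were higher in 1 of 10 and lower in 1 (-0.52 to 1.87, median -0.10). Most chaperones are made by every cell type, and the part of these shifts in the chaperone values was not tested. All 15 endothelial markers had a p-value, but with no levels their abundance in the microvessels was not analysed here.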

How the data were processed

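RNA sequencing of brain microvessels covered 4 tMCAO and 4 sham libraries, grouped by their titles. Named in the submitters' processing notes are DESeq2, HTSeq, STAR, cutadapt, bcl2fastq 2.19 and the build GRCm38 (mm10), with no roles, options or other versions. The deposited table holds, per the file headers, a log2 fold change for 31616 of 48404 genes and a p-value for 19294, with 106 further rows naming no gene. Values per library were not analysed here, so depth is unknown. The authors' rescaled version of the fold changes (z-scores, 1 per gene) was not used here. Whether libraries came from separate mice is not stated, so p-values measure the spread between libraries, which may be technical.

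Since several genes hold one and the same p in 3214 cases, as a Benjamini-Hochberg adjustment leaves them, the deposited p-value was taken as already adjusted. An unadjusted p was recovered as the adjusted p times its last rank over 19294, and the log2 fold change divided by its normal deviate gave the implied standard error, which assumes a two-sided normal test and unshrunken fold changes; shrinkage by the authors, which is not stated, would make the folds too small. The steps were run on data simulated from the same normal model. Such data cannot check for shrinkage or whether the deposited p was adjusted. Genes were called at an adjusted p under 0.05. No set test was run. Members, families, compartments and lists were chosen with earlier results of these data known. Genes named follow a rule: 15 set genes, any member called with a log2 fold change of 1 or more in size, the 4 smallest p-values and both extremes of each family, and up to 2 called genes per direction of each list; other members named were chosen after their values were seen. A further related list is not reported here. Positions are from GENCODE M21 and promoters from RefSeq (GRCm38.p6). Python 3.11.15, pandas 2.3.3, numpy 2.4.6 and scipy 1.17.1 were used.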

Additional observations from a re-analysis of the deposited data

How the results depend on the processing

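Main counts were 30 chaperone genes higher and 11 lower, 4 families (HSP90, mitochondrial chaperonin, CCT, HSP70 with HSP110) and 1 compartment (mitochondrion) with at least 1 in 2 members called higher. Adjusting the deposited p again, as if it were unadjusted, gave 22 and 8, and a threshold of 0.01 gave the same counts. Centring on the best measured genes gave 31 and 10, and leaving out Hspa1a and Hspa1b gave 28 and 11. HSP70 with HSP110 fell below 1 in 2 members higher on adjusting again, at 0.01 and without Hspa1a and Hspa1b. With a log2 fold change of 0.5 or more in size required as well, the counts were 21 and 8, but 2 families and 0 compartments kept 1 in 2 members higher. Centring on ribosomal protein genes changed most: 2 members were higher and 55 lower, with 0 families and 0 compartments left, while over all genes 1.7% were then higher and 78.1% lower. That centring subtracts a constant of 0.91 from every gene. Of all 80 members with a p-value 51 changed sign, 45 of them with a call on either scale. These include 22 of the 40 named by rule, at log2 values of Bag5 -0.69, Bag1 -0.30, Cct8 -0.23, Cct7 -0.16, Cct2 -0.0139, Cct3 -0.000925, Dnaja4 -0.79, Dnaja2 -0.72, Dnaja1 -0.71, Dnaja3 -0.63, Dnajb1 -0.53, Dnajb11 -0.41, Dnajc2 -0.14, Hspa8 -0.46, Hsph1 -0.20, Hspa9 -0.18, Hspa5 -0.18, Hsp90b1 -0.59, Hsp90aa1 -0.47, Hsp90ab1 -0.32, Hspe1 -0.086 and Hspd1 -0.0592, and, among other members, Hspa4 -0.47, Hspa14 -0.47, Dnajc15 -0.48, Dnajc25 -0.52, Cct4 -0.067, Cct5 -0.13 and Bag2 -0.66. Of the other 18 named by rule, 4 lost their call and 2 gained one. Without the membrane J proteins whose J domain faces the cytosol, the ER median was 0.24 in place of 0.08. Leaving out members that share sequence was chosen after seeing the data. No paired analysis was possible because the groups share no replicate numbers and no values per library were analysed; for the same reason no replicate was left out.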
